A study of Homo sapiens with 32 samples.

Results

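The immediate early genes FOS, FOSB, FOSL1, JUN, JUNB, EGR1, ATF3, IER2, IER3 and KLF6 were followed through every RNA sequencing library of a study of enhancer deletions. The 10 genes are taken by name, and no measured value enters the rule. The list was chosen, however, with earlier results of these data known. All 10 are among the 57820 genes counted in HCT116, and 8 are among the 11887 genes counted in HEK293. FOS and FOSB were therefore analysed in HCT116 alone.

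HCT116 is a line from a human colorectal carcinoma, and HEK293 is a line from human embryonic kidney. All clones had received Cas9-GFP and were expanded from single sorted cells. Control clones had received guide vector without a target sequence, and deletion clones had received guides against a distal element called E7, 18qE or 18qNE. On each of 3 RNA extraction days, named A, B and C, 4 control clones and 1 E7 clone of HCT116 were harvested. There were 3 18qNE clones with 1 library each, clones 1 and 3 on day A and clone 2 on day B. On day D there were 2 18qE clones and control clones 1 and 2. In HEK293, 2 control clones and 2 E7 libraries were taken on day E, and both E7 libraries carry the same clone label. The E7 group of HCT116 is thus 1 clone, and the HEK293 E7 group may be 1 clone as well. All cells were grown in medium with 10% serum, and the labels name no stimulus, so the values are levels in growing cultures.

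Depth, the sum of gene counts, was lowest in the HCT116 libraries of days A to C, at 9871667 to 14862268. It was 22972412 to 24887785 in the day D libraries, and HEK293 had 26491576 to 34790193. Levels are given as CPM, the reads of a gene scaled to the gene-count total of its library. CPM values of different genes are not compared, because the counts hold no gene length. Summed colon epithelial markers reached 3937 to 6489 CPM in HCT116 controls and 447 to 731 CPM in HEK293 controls, while HEK293 markers summed to 506 to 777 CPM and 1954 to 3028 CPM. In HCT116 controls 1 to 3 of the 10 colon epithelial markers were at 0. Only part of either marker list is counted in HEK293, so the sums of the lines do not cover the same genes. Gene counts hold no transcript of a deleted element, so they do not check the deletions.

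Immediate early genes are switched on within minutes of a stimulus such as serum, growth factors or stress, without new protein synthesis. Signals through the ERK and other MAP kinase cascades act on factors already bound at their promoters, among them SRF with its ternary complex partners and CREB, and feedback by dual-specificity phosphatases and Sprouty proteins then limits the signal. FOS, FOSB and FOSL1 pair with JUN and JUNB to form AP-1, a dimeric transcription factor, ATF3 is a related stress-induced factor that often represses, and EGR1 and KLF6 are zinc finger factors. IER2 is a small nuclear protein, and IER3 is a regulator of cell survival.

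The promoters of 4 members are shown because EGR1 and KLF6 moved together in these libraries, while JUNB fell in the E7 clone in which EGR1 rose, and FOS passed in none of the comparisons in the test described below, with its filter on low counts and all libraries. Each sequence is the 120 bases before the annotated start in RefSeq on GRCh38.p14, 5′ to 3′ on the strand of the gene. Capitals mark matches to the motifs searched. EGR1 lies on the plus strand of chromosome 5 (chr5:138465359-138465478), KLF6 on the minus strand of chromosome 10 (chr10:3785210-3785329), FOS on the plus strand of chromosome 14 (chr14:75278708-75278827) and JUNB on the plus strand of chromosome 19 (chr19:12791366-12791485).
EGR1: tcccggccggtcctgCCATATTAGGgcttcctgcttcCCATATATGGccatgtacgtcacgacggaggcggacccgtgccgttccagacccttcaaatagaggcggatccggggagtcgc
KLF6: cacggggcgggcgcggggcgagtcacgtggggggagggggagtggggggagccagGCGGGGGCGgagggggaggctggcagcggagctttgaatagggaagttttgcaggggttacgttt
FOS: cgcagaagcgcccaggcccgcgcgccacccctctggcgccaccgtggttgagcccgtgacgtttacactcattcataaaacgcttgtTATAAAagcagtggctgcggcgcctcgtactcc
JUNB: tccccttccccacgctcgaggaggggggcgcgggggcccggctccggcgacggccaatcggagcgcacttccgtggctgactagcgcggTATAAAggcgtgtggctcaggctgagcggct

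The motifs were searched on both strands in the RefSeq window of 250 bases before to 50 after a start, for 8 of the 10 members and for 35116 promoters in all. The SRF site known as the CArG box matched in EGR1 alone, at 105 and 83 bases before the start, and in 1.29% of all promoters. The EGR site GCGNGGGCG matched in KLF6, at 65 bases before the start, in EGR1, at 198 bases before, outside the stretch printed above, and in 9.43% of all promoters. TATAAA matched in FOS at 33, FOSB at 30 and JUNB at 31 bases before the start, in ATF3 at 230 bases before, and in 11.5% of all promoters. ATF3 has an upstream and a downstream annotated start, and the match was in the window of the downstream start alone. The AP-1 site TGANTCA (7.71% of all promoters) and the CRE TGACGTCA (1.85%) matched in none of the 8. These are matches of letters, and binding was not measured here.

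The first comparison asked how the immediate early genes differ between the E7 clone and the control clones of HCT116. Of the 10 members, 4 rose (FOSL1, EGR1, IER3 and KLF6), 2 fell (JUNB and ATF3) and 4 did not pass (FOS, FOSB, JUN and IER2). The test was edgeR's quasi-likelihood test on counts summed over the 3 days of each clone, 1 E7 clone against 4 control clones, with Benjamini-Hochberg adjustment over 17664 genes and a threshold of 0.05. By that test 13.9% of all genes passed, 7.58% higher and 6.32% lower. With a single E7 clone, its variation is taken to equal that of the 4 control clones, and p-values measure the spread between those.

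FOSL1, which encodes the AP-1 subunit FRA1, stood at 140 CPM on day A, 210 on day B and 248 on day C in the E7 clone. In the 12 control libraries it ran from 66.5 to 113 CPM with a median of 99.4. Every E7 library lay above every control library. On single days 28.3% to 30.2% of genes averaging at least 1 CPM lay above all 4 same-day controls, and 27% to 35.2% below. The share of genes separated over all 3 days, as here and for members below, was not counted. FOSL1 rose by 1.05 on a log2 scale, used for all changes below (SE 0.098, edgeR adjusted p = 0.000818), a fold of 2.08.

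IER3 stood at 286, 269 and 345 CPM on days A, B and C in the E7 clone. Its control libraries ran from 81.9 to 200.3 CPM with a median of 111. The groups did not overlap. IER3 rose by 1.17 (SE 0.13, edgeR adjusted p = 0.00196).

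KLF6 stood at 151, 123 and 141 CPM in the E7 clone on days A to C, and its control libraries ran from 59.2 to 107 CPM with a median of 78.6. Here too the lowest E7 library exceeded the highest control library. KLF6 rose by 0.83 (SE 0.093, edgeR adjusted p = 0.00181).

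EGR1 stood at 74.0, 61.0 and 108 CPM in the E7 clone on days A, B and C. Its control libraries ran from 15.1 to 76.5 CPM with a median of 26.9. The ranges overlapped through day A, when the E7 clone lay within the 4 control clones at 1.37 times their mean. On day B it was at 3.26 times and on day C at 4.29 times the control mean, above all 4 control clones on both days. EGR1 rose by 1.27 (SE 0.20, edgeR adjusted p = 0.00722). Without day C in either group the change was 0.88 and did not pass (edgeR adjusted p = 0.0600), and without day A it was 1.93.

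ATF3 was the member with the largest decrease in the E7 clone. It stood at 5.11, 4.28 and 6.70 CPM in the E7 clone, against control libraries from 8.49 to 17.1 CPM with a median of 12.9. The highest E7 library lay below the lowest control library. ATF3 fell by 1.26 (log2; SE 0.22, edgeR adjusted p = 0.00989).

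JUNB, an AP-1 subunit that can restrain JUN, stood at 39.8, 36.9 and 57.6 CPM in the E7 clone on days A, B and C. Control libraries ran from 48.4 to 93.1 CPM with a median of 62.6. The ranges overlapped over all days, but on each single day the E7 library was below all 4 control clones, at 0.481, 0.699 and 0.927 times their mean. On day C the lowest control clone was close to it, at 58.0 CPM. JUNB fell by 0.59 (log2; SE 0.094, edgeR adjusted p = 0.00722). Without day A in either group the change was -0.29 and did not pass (edgeR adjusted p = 0.153).

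The remaining members did not pass in the E7 comparison. FOS, the AP-1 subunit most rapidly induced and lost after a stimulus, stood at 5.58, 5.90 and 8.97 CPM in the E7 clone and from 3.07 to 8.31 CPM in controls, a change of 0.43 (SE 0.23, edgeR adjusted p = 0.245). These FOS levels rest on 37 to 120 reads per control library. FOSB, a FOS paralogue, stood at 2.29, 2.46 and 4.44 CPM against 1.31 to 4.21 CPM, from 14 to 58 reads per control library, with a change of -0.01 (edgeR adjusted p = 0.989). JUN stood at 13.3, 12.2 and 27.8 CPM against 10.9 to 29.4 CPM, a change of -0.19 (edgeR adjusted p = 0.485). IER2 stood at 63.9, 59.7 and 74.1 CPM against 45.1 to 67.9 CPM, a change of 0.23 (edgeR adjusted p = 0.0960). For each of these 4 genes the E7 and control ranges overlapped.

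With the 3 18qNE clones as the reference in place of the control clones, none of the 6 changed members passed. FOSL1 was then at 0.68, KLF6 at 0.51, EGR1 at 0.44 and IER3 at 0.43. ATF3 was at -1.52 and JUNB at -1.15. The edgeR adjusted p of these 6 ran from 0.194 for ATF3 to 1.00 for EGR1 and IER3. Each value kept its sign, and the higher values of 18qNE clone 1, described below, are part of that reference. The share of mitochondrially encoded mRNA among gene counts was 3.64% to 4.32% in E7 libraries and 4.71% to 6.60% in controls, and its part in these results was not tested.

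**Figure D1:**
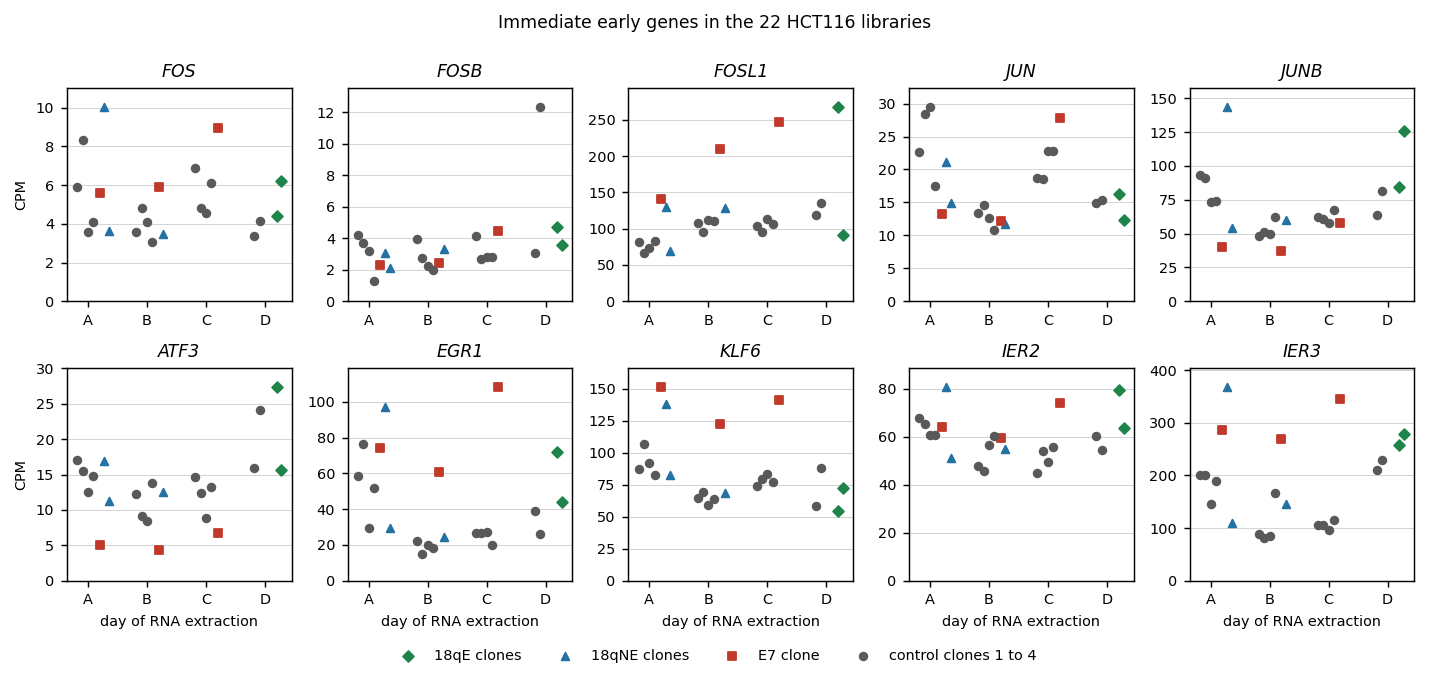
CPM of the 10 immediate early genes (vertical axes, from 0) in the 22 HCT116 libraries, by day of RNA extraction (horizontal axes), with 1 point per library. Red squares of the E7 clone lie above all grey control points of the same day for FOSL1, IER3 and KLF6 and below them for ATF3 and JUNB, on each of the first 3 days, and the blue triangle of 18qNE clone 1 is the highest point of day A for FOS, JUNB, EGR1, IER2 and IER3.

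The 4 control clones were each harvested on days A, B and C, which shows how far the same genes move between harvests of control cells. Against day A, 6 members fell on day B (EGR1, JUN, IER3, JUNB, KLF6 and ATF3) and 1 rose (FOSL1). Across all 3 days 7 of the 10 members differed, in a background in which 38.2% of 14988 genes did so (edgeR with the clone as a term, adjusted p under the 0.05 threshold). For day B against day A, 38.5% of all genes passed, 19.1% higher and 19.4% lower.

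EGR1 moved most. On day A it stood at 58.4, 76.5, 29.6 and 52.0 CPM in control clones 1 to 4. On day B it stood at 22.1, 15.1, 19.7 and 18.0 CPM, and on day C at 26.8, 26.9, 27.2 and 19.9 CPM. Every clone was lower on days B and C than on day A, and no day B or day C library reached the lowest day A library. EGR1 fell by 1.44 from day A to B (SE 0.20, edgeR adjusted p = 0.000119) and by 1.03 from A to C (SE 0.19, edgeR adjusted p = 0.00128).

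JUN, the main DNA-binding partner of FOS proteins, stood at 22.6, 28.5, 29.4 and 17.5 CPM in clones 1 to 4 on day A. It stood at 13.4, 14.6, 12.6 and 10.9 CPM on day B and at 18.6, 18.5, 22.9 and 22.8 CPM on day C. All 4 clones were lowest on day B. JUN fell by 0.87 from A to B (SE 0.13, edgeR adjusted p = 0.000249). From A to C its change was -0.19 (edgeR adjusted p = 0.287), and without control clone 4 it was -0.38 and passed (edgeR adjusted p = 0.0288).

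IER3 stood at 200.3, 200.0, 145 and 189 CPM on day A in clones 1 to 4. It stood at 89.1, 81.9, 85.0 and 167 CPM on day B and at 106, 107, 96.2 and 116 CPM on day C. Clone 4 kept a high level on day B, where it overlapped the day A range. IER3 fell by 0.79 from A to B (SE 0.14, edgeR adjusted p = 0.000616) and by 0.75 from A to C (SE 0.14, edgeR adjusted p = 0.00115).

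JUNB stood at 93.1, 91.0, 73.2 and 74.1 CPM on day A, at 48.4, 51.0, 49.3 and 62.6 CPM on day B and at 62.5, 61.0, 58.0 and 67.2 CPM on day C. Neither later day overlapped day A. JUNB fell by 0.60 from A to B (SE 0.098, edgeR adjusted p = 0.000368) and by 0.38 from A to C (SE 0.097, edgeR adjusted p = 0.00892), the latter not without control clone 2 (-0.33, edgeR adjusted p = 0.0919).

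KLF6 ran from 82.6 to 107 CPM on day A, from 59.2 to 69.6 CPM on day B and from 74.4 to 83.2 CPM on day C. It fell by 0.47 from A to B (SE 0.074, edgeR adjusted p = 0.000297), while its change from A to C was -0.19 (edgeR adjusted p = 0.0634). ATF3 ran from 12.6 to 17.1 CPM on day A, from 8.49 to 13.9 CPM on day B and from 8.85 to 14.6 CPM on day C. It fell by 0.42 from A to B (SE 0.11, edgeR adjusted p = 0.00992), but not without control clone 2 (-0.34, edgeR adjusted p = 0.109).

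FOSL1 was the member that went the other way. It stood at 81.3, 66.5, 73.0 and 83.5 CPM on day A, at 108, 95.1, 112 and 111 CPM on day B, and at 103, 95.8, 113 and 106 CPM on day C. Every clone was higher on both later days, with no overlap with day A. FOSL1 rose by 0.54 from A to B (SE 0.074, edgeR adjusted p = 0.000116) and by 0.50 from A to C (SE 0.074, edgeR adjusted p = 0.000283).

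FOS, FOSB and IER2 did not pass between days A and B. Their changes were -0.43 (SE 0.22, edgeR adjusted p = 0.132), -0.14 (edgeR adjusted p = 0.634) and -0.23 (edgeR adjusted p = 0.0766). Without control clone 3, FOS was at -0.64 and IER2 at -0.31, and both passed (edgeR adjusted p = 0.0475 and 0.0477). IER2 ran from 60.7 to 67.9 CPM on day A and from 45.1 to 55.7 CPM on day C, a decrease of 0.28 on the log2 scale that passed with all 4 clones (edgeR adjusted p = 0.0416). It was lost when any 1 of them was left out, with changes of -0.18 without clone 1, -0.31 without clone 2, -0.30 without clone 3 and -0.34 without clone 4. For day C against day A, 5 of 10 members passed, 1 higher and 4 lower, beside 32.2% of all genes, 15.6% higher and 16.6% lower.

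Between days C and B no member passed, beside 0.0334% of all genes. By edgeR 5 of 14988 genes passed and 1900 had an unadjusted p under 0.05, and DESeq2 called 68 genes, JUN among them. JUN was higher on day C in all 4 clones and without overlap, at 0.68 (edgeR adjusted p = 0.0935; DESeq2 adjusted p = 0.00774). Without control clone 1 it was at 0.74 and passed (edgeR adjusted p = 0.0434).

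**Figure D2:**
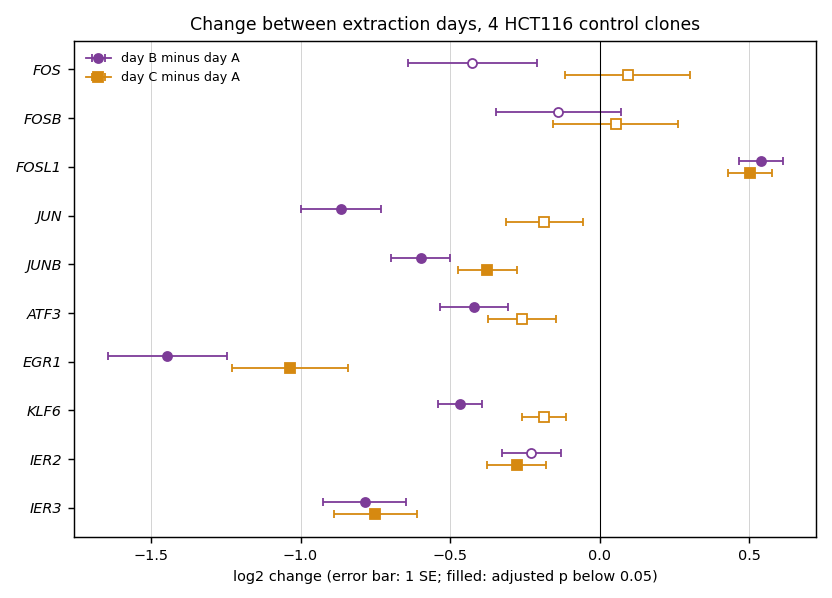
Log2 change of each of the 10 genes (rows) from day A to day B (circles) and from day A to day C (squares) in the 4 HCT116 control clones, with error bars of 1 SE and filled symbols where the edgeR adjusted p passed 0.05. EGR1 lies farthest to the left, at -1.44 and -1.03, and FOSL1 is the gene with filled symbols to the right of 0.

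Other genes of the response moved between the same days. Of 34 further immediate early genes, 14 fell and 3 rose from day A to B. Over all genes 19.4% fell and 19.1% rose between these days, the background for each list here. EGR2, a paralogue of EGR1, fell by 2.11, EGR3 by 1.39 and BTG2, an antiproliferative gene, by 1.11. Their median was -0.26, beside a median of -0.01 over all genes tested. Of 11 genes of ERK feedback and output, 7 fell and none rose. SPRY4, a Sprouty inhibitor of receptor signalling, fell by 1.05, DUSP6, the ERK phosphatase, by 1.04 and DUSP4 by 0.75. Of 12 other AP-1 subunits, 6 fell and 2 rose, of which CREB5 fell by 1.95 and JUND fell by 0.72. FOSL2, JUND and MAFF are on this list and on that of further immediate early genes. Among 13 AP-1 target genes 6 fell and 1 rose.

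From day A to C, 11 of the 34 further immediate early genes and 5 of the 11 ERK feedback genes fell, and none of either list rose. Over all genes 16.6% fell and 15.6% rose over that interval. DUSP6 fell by 0.86 over that interval and EGR2 by 2.07. Other signs moved with the day as well. Of 10 heat shock genes 6 rose and 1 fell from A to B, and of 13 mitochondrially encoded genes 9 fell and 1 rose. These counts stand beside 19.1% of all genes higher and 19.4% lower. Mitochondrially encoded mRNA made up 5.24% to 6.60% of gene counts on day A, 4.81% to 5.01% on day B and 4.71% to 4.92% on day C. The part of these signs in the changes of the immediate early genes was not tested, and the labels give no more about a day than its letter.

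Differences among the control clones themselves were tested next. With the day as a term, none of the 10 members differed among the 4 control clones, beside 7.8% of 14988 genes (edgeR F test). That test called 1169 genes and gave 3072 with an unadjusted p under 0.05, FOSB, ATF3, IER3 and FOSL1 among them. ATF3 (edgeR adjusted p = 0.0655) and FOSB (0.0764) came nearest, and the edgeR adjusted p of the others ran from 0.186 to 0.839. FOSB stood at 4.21, 3.95 and 4.15 CPM in control clone 1 and at 1.31, 1.99 and 2.81 CPM in control clone 4, from days A to C. Without day A, ATF3 and IER3 passed (edgeR adjusted p = 0.0410 and 0.0180). Among the further immediate early genes 13 of 34 differed among the control clones, and so did 3 of the 11 ERK feedback genes, DUSP4, DUSP6 and SPRY4.

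The E7 clone was sampled on the same days as the control clones, and its steps between days can be set beside theirs. From day A to C, EGR1 went to 1.46 times its level in the E7 clone, while the 4 control clones went to 0.352 to 0.919 times. IER3 went to 1.21 times in the E7 clone against 0.528 to 0.663 times, and JUNB to 1.45 times against 0.670 to 0.906 times. JUN went to 2.09 times in the E7 clone against 0.651 to 1.30 times. The E7 ratio lay above all 4 control ratios for 8 of the 10 members, FOSB and KLF6 being within them, beside 14.7% of genes averaging at least 1 CPM.

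In the test of a different day response no member passed, beside 0% of 15767 genes. By edgeR 436 genes had an unadjusted p under 0.05, JUN (0.00156), JUNB (0.00185), EGR1 (0.00293) and IER3 (0.0077) among them, and DESeq2 called 5 genes and no member. Without control clone 3, EGR1 passed (edgeR adjusted p = 0.0224). Without a filter on low counts, EGR1, IER3, JUN and JUNB passed. The E7 library of day A was above all same-day controls for 3 members and below all for 3, beside 28.3% and 27% of genes averaging at least 1 CPM. That of day B was so for 5 and 2 members (30.2% and 29.8% of such genes), and that of day C for 8 and 2 (29.9% and 35.2%).

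Over the 18 libraries of days A to C, the likeness of members was described by Pearson correlations of log2 CPM. These libraries share clones, days and control cultures, and the values are descriptions. EGR1 correlated with KLF6 (r = 0.90), IER3 (r = 0.90), IER2 (r = 0.78) and FOS (r = 0.71). IER3 correlated with IER2 and KLF6 (r = 0.86 each). ATF3 correlated with JUNB (r = 0.79), while FOSB correlated with no member above its r of 0.47 with FOS, and JUN correlated best with JUNB (r = 0.57). FOSL1 went against ATF3 (r = -0.66) and JUNB (r = -0.36), being high where both were low in the E7 clone and between days.

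Among 10910 genes averaging 5 CPM or more, those most like EGR1 were NAB2, SPRY4 and KLF6 (r = 0.90 each). NAB2 is a corepressor that binds EGR proteins. Those most like FOS were FAM110C (r = 0.81), CNEP1R1 (r = 0.80) and PLAUR (r = 0.78), and those most like JUN were PAPOLG (r = 0.82), BTG2 (r = 0.78) and MAP3K1 (r = 0.77). KLF6 is thus both a member and a nearest neighbour of EGR1. The searched promoter windows of both hold an EGR site, as do 9.43% of all promoters. Any part of that site in their likeness was not tested.

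**Figure D3:**
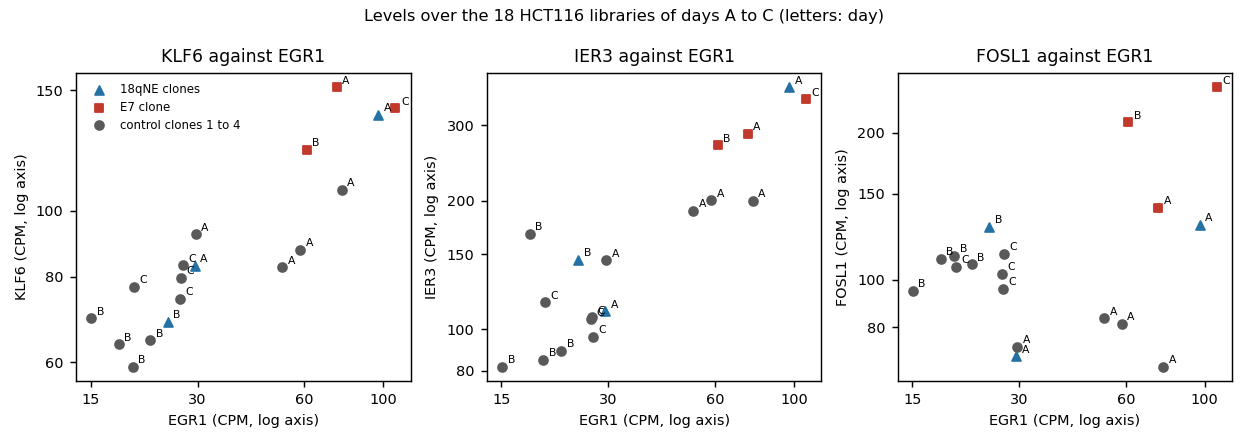
CPM of KLF6, IER3 and FOSL1 (vertical log axes) against EGR1 (horizontal log axes) in the 18 HCT116 libraries of days A to C, 1 point per library, with letters for the day and colours for the group. KLF6 and IER3 climb with EGR1 (r = 0.90 each), with the E7 libraries and 18qNE clone 1 at the upper right, while FOSL1 follows EGR1 less closely (r = 0.34).

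The pathway around the members was described in the E7 clone by fixed lists, read against the median of all genes (-0.01) and the 13.9% of all genes that passed. Of the 34 further immediate early genes 4 rose and 5 fell, with a median of -0.03. NR4A2, an orphan nuclear receptor, rose by 1.64 and SGK1, a serum-induced kinase, by 1.38. EGR4 gave 4 reads in the 3 E7 libraries and 122 in the 12 control libraries, a ratio of CPM of 0.120 (95% counting interval 0.0322 to 0.315). It was among the genes that fell.

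Of the 11 genes of ERK feedback and output 5 rose and none fell, with a median of 0.34. DUSP6 rose by 2.61 (SE 0.26), SPRY4 by 1.15 (SE 0.18) and DUSP4 by 1.06 (SE 0.19), at edgeR adjusted p from 0.00106 to 0.0111. These are the 3 genes of the list that also differed among the control clones. Of 15 AP-1 target genes 7 rose and 1 fell. LIF, a cytokine, rose by 3.13 and EREG, a ligand of the EGF receptor, by 1.09, while HMOX1, a heme-degrading enzyme, fell by 0.93. LIF and EREG also differed among the control clones (edgeR adjusted p = 0.0103 and 0.000325), and so did NR4A2 (0.0303). Of 13 AP-1 targets tested there 8 differed, beside 7.8% of all genes.

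Of 22 MAP kinase cascade genes 3 rose and 2 fell. RPS6KA1, an ERK-activated kinase, rose by 0.70, and RPS6KA5, a kinase activated by ERK and p38, fell by 1.36. MAP2K6, a p38 activator, had 1 read in the E7 libraries and 95 in the control libraries, a ratio of 0.0385 (95% counting interval 0.000965 to 0.220). Of 9 SRF, ternary complex and CREB regulators 3 rose (ELK3 by 0.55, ATF1 by 0.44 and ELK1 by 0.33) and CREB1 fell by 0.40. Of 12 other AP-1 subunits, JDP2 rose by 0.63, while BATF3 fell by 0.74 and JUND by 0.68.

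The second deletion asked about was 18qNE. None of the 10 members passed against the control clones of days A and B, beside 0% of 15524 genes. Control clones were summed over both days, while each 18qNE clone was of day A or of day B alone. The day was thus not balanced in this fit. By edgeR 505 genes had an unadjusted p under 0.05, none of the members among them, and DESeq2 called 13 genes, again no member. The largest change was that of IER3, at 0.53 (SE 0.34, edgeR adjusted p = 1.00). Those of EGR1 (0.46), JUNB (0.34) and KLF6 (0.31) followed.

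The 3 clones disagreed with each other. EGR1 stood at 96.9 CPM in 18qNE clone 1 and at 29.4 CPM in clone 3, both of day A, beside control libraries of day A from 29.6 to 76.5 CPM. IER3 stood at 368 CPM in clone 1 and at 110 CPM in clone 3, beside 145 to 200.3 CPM. JUNB stood at 143 CPM in clone 1 and at 54.1 CPM in clone 3, beside 73.2 to 93.1 CPM. For all 3 genes clone 1 lay above and clone 3 below every control clone harvested on that day.

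Over the 10 members, clone 1 was above all 4 same-day controls for 7 and below all for none, while 20% and 23.4% of genes averaging at least 1 CPM were so placed. Clone 3 was below all of them for 6 and above all for none, beside 23.7% and 17.9% of such genes. Clone 2, of day B, was above all for 2 members, beside 21.3% of such genes, FOSL1 (128 CPM against 95.1 to 112) and EGR1 (24.7 CPM against 15.1 to 22.1). Without clone 1 the changes of 7 members turned sign, to -0.42 for EGR1, -0.39 for FOS, -0.24 for JUNB, -0.17 for IER3, -0.12 for IER2, -0.11 for ATF3 and -0.04 for KLF6. None of them was called with or without it.

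The third deletion was 18qE, with 2 clones beside 2 control libraries of day D. None of the 10 members passed, beside 0% of 15261 genes. By edgeR 391 genes had an unadjusted p under 0.05, EGR1 (0.0172) and JUNB (0.0316) among them, and DESeq2 called 19 genes and no member. EGR1 stood at 72.0 and 43.9 CPM in 18qE clones 1 and 2 and at 38.9 and 25.9 CPM in the controls, a change of 0.89 (SE 0.29, edgeR adjusted p = 1.00). JUNB stood at 84.3 and 126 CPM against 63.8 and 81.8 CPM, a change of 0.55 (SE 0.21, edgeR adjusted p = 1.00). EGR1, JUNB, FOS, IER2 and IER3 were higher in both 18qE clones than in both controls, as were 9.94% of genes averaging at least 1 CPM.

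FOSL1 split the 18qE clones. It stood at 267 CPM in clone 1 and at 91.1 CPM in clone 2, with the controls at 119 and 136 CPM between them. Without clone 2, FOSL1 was at 1.15 (edgeR adjusted p = 0.000835) and EGR1 at 1.24 (edgeR adjusted p = 0.00132), and both passed, beside 0.84% of all genes. The deletion group is then 1 library, so this spread is that of the 2 controls and says nothing of how 18qE clones vary. Without clone 1, FOSL1 was at -0.49 (edgeR adjusted p = 0.511). ATF3 stood at 27.4 CPM in clone 1 and 15.7 CPM in clone 2, while controls 1 and 2 stood at 16.0 and 24.2 CPM. Clone 2 also stood apart in its alignments, of which 24.8% were at several places, against 15.6% to 18.8% in the other libraries of day D, and the part of this in the split was not tested.

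Control clones 1 and 2 were harvested again on day D, which places those libraries among the other days. Against the mean of days A to C of the same clones, 3 of 10 members rose and none fell, beside 6.12% of 14782 genes, 3.12% higher. IER3 stood at 209.6 and 230 CPM on day D and rose by 0.92 (SE 0.081, edgeR adjusted p = 0.00015). FOSL1 stood at 119 and 136 CPM and rose by 0.57 (SE 0.10, edgeR adjusted p = 0.0112). ATF3 stood at 16.0 and 24.2 CPM and rose by 0.67 (SE 0.17, edgeR adjusted p = 0.0408). These calls depend on the day taken as reference. Against day A alone, IER3 (0.23) and ATF3 (0.40) did not pass, while FOS (-0.82), JUN (-0.65) and EGR1 (-0.99) were lower and passed. Against day B alone, EGR1 (0.85), JUNB (0.60), IER3 (1.42) and ATF3 (0.97) were higher and passed. FOSL1 did not pass against day B (0.39) or day C (0.42), nor ATF3 against day C (0.64), and IER3 was the 1 member that passed against day C. FOSB stood at 12.3 CPM in control clone 2 on day D, from 283 reads, and between 1.31 and 4.74 CPM in the other 21 HCT116 libraries.

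In HEK293 the same comparison of E7 and control libraries was made for the 8 members counted there. None passed, beside 0.0254% of 11806 genes. By edgeR 3 genes passed and 1487 had an unadjusted p under 0.05, IER3 (0.000541) and EGR1 (0.0393) among the members, and DESeq2 called 463 genes, IER3 among them. IER3 stood at 14.3 and 10.4 CPM in control libraries 1 and 2 and at 38.7 and 47.1 CPM in the E7 libraries. The groups were apart, with a change of 1.74 (SE 0.23, edgeR adjusted p = 0.189; DESeq2 adjusted p = 1.5e-06). Sums of cell type markers stood apart in the same libraries. Summed colon epithelial markers, of which 5 of 10 are counted in HEK293, reached 1018 to 1163 CPM in the E7 libraries and 447 to 731 CPM in the controls, and HEK293 markers (7 of 10 counted) 1625 to 1727 CPM against 1954 to 3028 CPM, with none at 0. Single markers did not all follow these sums. CDX2 was at -1.50, while EPCAM (1.03), KRT8 (0.78), KRT18 (0.47) and KRT19 (1.56) were higher, and no colon epithelial marker passed. Of the HEK293 markers NEFM, a neurofilament gene, rose by 5.54 (edgeR adjusted p = 0.0198). INA (1.97), ZIC2 (0.31) and DPYSL3 (0.13) were higher and CKB (-0.90), GATA3 (-0.38) and LIN28B (-0.11) lower, without passing. The part of these markers in the E7 changes was not tested.

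IER3 was at 1.93 without control library 1 and at 1.55 without control library 2. It was at 1.88 without E7 library 1 and at 1.58 without E7 library 2. Each of these fits has 1 library in a group, and the other group alone gives the spread. With the E7 libraries summed as 1 clone, IER3 was at 1.72. EGR1 stood at 9.48 and 7.13 CPM in the controls and at 12.7 and 14.5 CPM in the E7 libraries, at 0.65 (SE 0.24, edgeR adjusted p = 0.370). JUNB stood at 8.99 and 7.81 CPM against 10.9 and 13.1 CPM, at 0.45 (SE 0.23, edgeR adjusted p = 0.485). In both genes the 2 groups did not overlap, as in 28.8% (higher) and 20.9% (lower) of genes averaging at least 1 CPM.

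IER2 stood at 32.7 and 40.4 CPM in the HEK293 controls and at 27.3 and 31.8 CPM in the E7 libraries, at -0.38 (edgeR adjusted p = 0.532). The changes of JUN, KLF6, FOSL1 and ATF3 lay between -0.12 and 0.01, and their groups overlapped. FOSL1, which stood at 4.00 and 8.53 CPM in the controls, had an SE of 0.43. Without control library 1, EGR1 (0.81), IER2 (-0.57), IER3 (1.93) and KLF6 (0.41) passed, 4 of 8 members beside 52.5% of all genes. Without control library 2, KLF6 was at -0.31 and did not pass.

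Whether the E7 libraries departed from their controls by different amounts in the 2 lines was tested by the interaction of cell line and deletion. JUNB passed, beside 3.38% of 11849 genes, 1.45% in its direction. Its E7 change was 1.05 higher in HEK293 than in HCT116 (SE 0.20, edgeR adjusted p = 0.0354), from -0.59 in HCT116 to 0.45 in HEK293. The call was lost without E7 library 1 of HEK293 (1.19, edgeR adjusted p = 0.0783) or without E7 library 2 (0.90, edgeR adjusted p = 0.114).

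The E7 changes of the other 7 members could not be told apart between the lines at the threshold. The differences, HEK293 minus HCT116, were 1.16 for ATF3 (SE 0.33, edgeR adjusted p = 0.107), -1.02 for FOSL1 (SE 0.43, adjusted p = 0.247), -0.80 for KLF6 (SE 0.31, adjusted p = 0.206) and 0.58 for IER3 (SE 0.28, adjusted p = 0.313). Without control library 1 of HEK293, FOSL1 (-1.50), ATF3 (1.36), IER2 (-0.77) and IER3 (0.79) passed as well, beside 39.7% of all genes. Without control library 2, KLF6 (-1.12) passed, beside 17.6% of all genes, and FOSL1 was at -0.33. From the pathway lists, the ERK feedback genes DUSP6 (-3.81) and DUSP5 (-1.42), the further immediate early genes FOSL2 (2.04), IER5L (-1.47) and CCN1 (1.33), the kinase gene RPS6KA5 (1.60) and the AP-1 target CCND1 (-1.55) were among those that differed, in both directions.

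**Figure D4:**
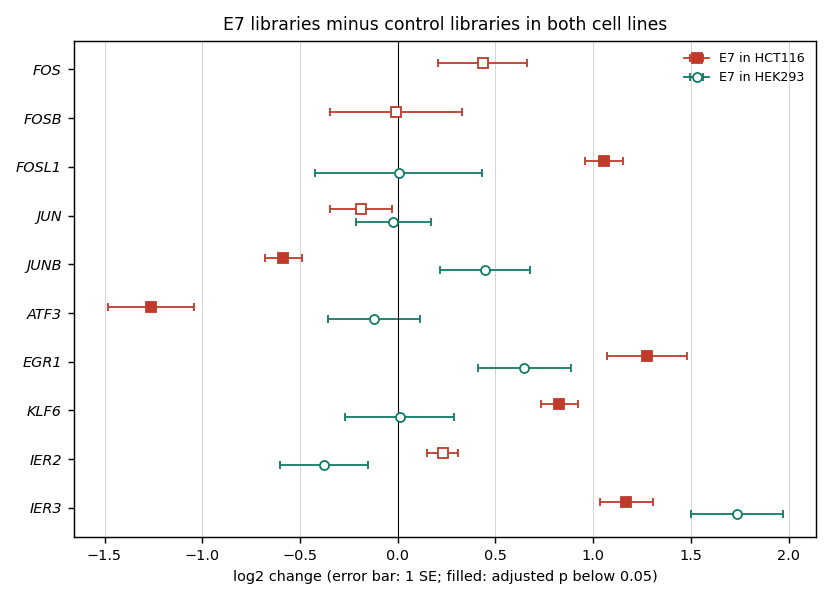
Log2 difference of E7 from control libraries in HCT116 (squares, 1 clone against 4) and HEK293 (circles, 2 libraries against 2) for each gene (rows), with error bars of 1 SE and filled symbols where the edgeR adjusted p passed 0.05. IER3 and EGR1 lie to the right of 0 in both lines, while JUNB lies at -0.59 in HCT116 and at 0.45 in HEK293.

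The control clones of the lines themselves were compared over the genes listed in both kinds of file. CPM was computed here over those shared genes, which hold 95.6% to 97.0% of the HCT116 gene counts. All 8 members differed, 2 higher and 6 lower in HEK293, beside 57% of 11805 genes, 31.1% higher and 26% lower. Cell line, extraction day, depth and the kind of count file cannot be told apart in this comparison.

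JUN stood at 415 and 348 CPM in the HEK293 control libraries and between 11.2 and 30.6 CPM in the 12 HCT116 control libraries of days A to C. It was 4.05 higher in HEK293 on that scale (SE 0.13, edgeR adjusted p = 1.88e-06), a fold of 16.6. ATF3 stood at 46.7 and 33.7 CPM against 8.75 to 17.7 CPM, 1.42 higher (SE 0.18, edgeR adjusted p = 0.000488). With the day D libraries standing for HCT116, ATF3 was at 0.71 and did not pass (edgeR adjusted p = 0.107).

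The AP-1 partners went the other way. FOSL1 stood at 4.00 and 8.53 CPM in HEK293 and between 69.2 and 117 CPM in HCT116, a difference of -4.14 (SE 0.34, edgeR adjusted p = 7.44e-05). JUNB stood at 8.99 and 7.81 CPM against 49.9 to 96.5 CPM, a difference of -3.22 (SE 0.12, edgeR adjusted p = 3.01e-06). Of the 2 Jun genes among the members, JUN was higher and JUNB lower in HEK293, each relative to its own level in HCT116.

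IER3 differed by -3.67 (14.3 and 10.4 CPM against 84.5 to 208 CPM, edgeR adjusted p = 1.08e-05) and EGR1 by -2.23 (9.48 and 7.13 CPM against 15.6 to 79.6 CPM, edgeR adjusted p = 0.000236). Smaller differences were those of KLF6 (-1.39) and IER2 (-0.85), both past the threshold. In all 8 members both HEK293 control libraries lay on 1 side of the 12 HCT116 control libraries, as did 33.4% (higher) and 17.5% (lower) of shared genes averaging at least 1 CPM.

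**Figure D5:**
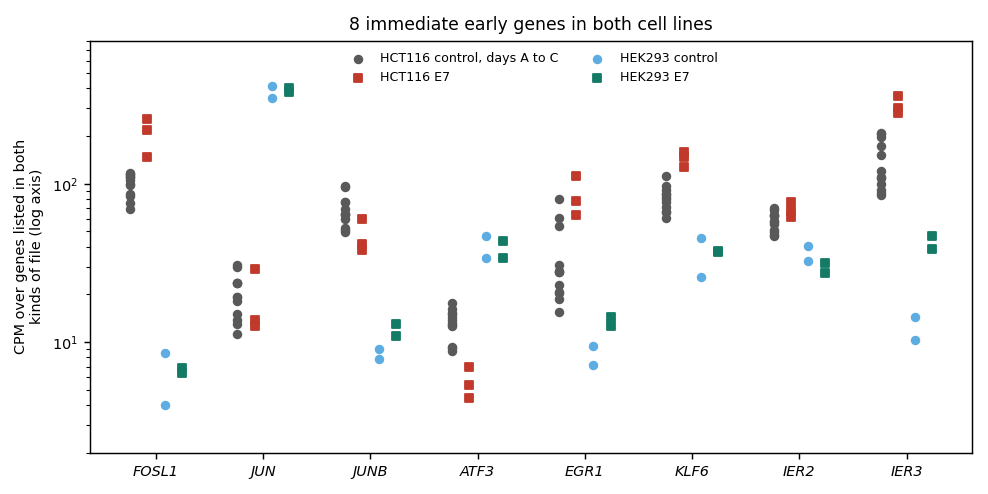
Level of 8 immediate early genes (horizontal axis) in CPM over the genes listed in both kinds of file (vertical log axis), 1 point per library, for control and E7 libraries of HCT116 (days A to C) and HEK293 (day E). JUN points of HEK293 sit between 348 and 415 CPM, above all HCT116 points, and those of FOSL1, JUNB and IER3 sit below them.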

How the data were processed

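The authors deposited whole-number counts of reads per gene, 1 library per file, not normalized, for 26 RNA libraries of 32 samples. The other 6, chromatin immunoprecipitation, were not analysed here. The build was hg19 and the tools included HTSeq 0.6.1, TopHat2, Partek 3 and bcl2fastq, per the submitters' processing notes. Not given in the sources used here is how strand was handled, so antisense or overlapping transcripts cannot be told apart. Each HCT116 file held 5 summary lines, left out of library sizes and tests.

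Counts were tested with edgeR 4.0.16 in R 4.3.3 (TMM, filterByExpr with minimum count 10, quasi-likelihood F test, 2-sided, Benjamini-Hochberg over all genes tested, threshold 0.05). The clone was the replicate for E7, 18qNE and 18qE in HCT116. Libraries of a clone were summed over days A to C for E7. For 18qNE, control libraries were summed over days A and B, and each deletion clone was of day A or B alone. Days were tested with clone as a term and clones with day as a term. In HEK293 the spread may be that within 1 clone. DESeq2 1.42.0, no low-count filter and left-out libraries were among the alternatives. The fits were also run on simulated data, and the outcome is not reported here. Correlations used log2 CPM (prior count 2). Coordinates come from RefSeq on GRCh38.p14, not the build of the files.

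The members, gene lists and tests were chosen with earlier results of these data known. The naming rule took all 10 members, up to 3 called genes with the largest change per other list, and the 3 genes most like EGR1, FOS and JUN; some genes it takes are not reported here. Numbers in the labels do not pair clones or libraries. Lists used for description alone were leukocyte, fibroblast and endothelial markers and ATF4 stress genes. Leukocyte markers summed to at most 2.15 CPM, endothelial markers to at most 1.54 CPM and fibroblast markers to at most 30.1 CPM in the HCT116 libraries. Of the 9 ATF4 stress genes tested, 1 fell in the E7 clone, beside 6.32% of all genes, and 4 rose on day D, beside 3.12%.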

Additional observations from a re-analysis of the deposited data

Results flagged for a closer look

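In 3 of 30 sets of 4 control libraries of 1 day and gene, a library lay farther from its nearest neighbour than the 95% critical value of Dixon's gap test allows, which chance does in about 1 set in 20. FOSB stood at 4.15 CPM in control clone 1 on day C, with the next library at 2.81. IER3 stood at 167 CPM in control clone 4 on day B, with the next at 89.1. EGR1 stood at 19.9 CPM in control clone 4 on day C, with the next at 26.8.

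The E7 change of JUNB differed between the cell lines by 1.05 on the log2 scale (edgeR adjusted p = 0.0354). In HCT116 the E7 library lay below all 4 same-day controls on days A and B. On day C it stood at 57.6 CPM, with the lowest control at 58.0, and over the shared genes it did not lie below all controls. Both HEK293 E7 libraries were higher than the controls, but the change there did not pass (0.45, edgeR adjusted p = 0.485).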

How the results depend on the processing

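Of 976 values of single members under other settings, 864 kept their direction and side of the threshold or moved less than the spread, 25 lost and 42 gained a call, 44 moved and 1 reversed. EGR1 on day D, at 0.06 against days A to C, was at -0.99 against day A alone and at 0.85 against day B alone. Where a result changed, the cause was not tested, except that fewer samples enter when a library is left out.

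For E7 in HCT116, 64 of 66 values of the 6 called members stayed past the threshold over 11 settings. That tally leaves out the 18qNE reference, under which all 6 lost their call. Genes called in all went from 2456 to 5178 over libraries with the day as a replicate block, and to 79 with the 18qNE reference, where members called went to 0. Leaving out 1 control clone gave 1477 to 3087 genes and 6 members throughout. For 18qNE, genes called went from 0 to 16 without a filter on low counts, 13 by DESeq2, 3 with the day as a term and 0 to 1 without a clone, with 0 members in each. A fit to day A alone, chosen after seeing the data, also called no member. For 18qE, DESeq2 called 19 genes, and leaving out a clone gave 0 to 132 genes and 0 to 2 members.

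For E7 in HEK293, called genes and members went from 3 and 0 to 463 and 1 by DESeq2, to 71 and 1 with summed E7 libraries, and to 74 to 6210 and 0 to 4 without a library. Library numbers were not taken as pairs. Same-numbered libraries correlated in their deviations at 0.34 in HEK293 and 0.07 for 18qE. With a replicate block, 670 genes and 1 member were called in HEK293, and 0 of both for 18qE and 18qNE.

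Leaving out a control clone gave 2228 to 6465 genes and 6 to 7 members over the 3 days, 2688 to 6365 and 6 to 9 for B against A, 1901 to 4986 and 3 to 5 for C against A, and 0 to 107 and 0 to 1 for C against B. For C against B, 260 genes and 2 members were called without a filter and 68 and 1 by DESeq2. Among clones, 1959 genes and 4 members were called without a filter, 2 members without day A, and 308 genes without day C. For the day response of the E7 clone, 44 genes and 4 members were called without a filter, 5 genes by DESeq2, and 0 to 1 of both without a clone.

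For day D, 1901 genes were called without a filter, 2311 against day A, 596 against day B, and 337 with 1 member against day C. For the E7 effect between lines, DESeq2 called 1175 genes and 2 members, and leaving out a HEK293 library gave 35 to 4701 genes and 0 to 5 members. With day D libraries for HCT116, 3984 genes differed between the lines. Without a HEK293 control library, 8424 to 8641 genes and 8 members did. FOS and FOSB rest on 14 to 120 reads per control library of days A to C, which limits what could be detected for them.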
